A study of Sus scrofa with 6 samples.

Results

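The genes described here build and cross-link elastic fibres, the rubber-like part of the matrix that lets the external ear bend and spring back. A list of 10 genes was searched for by the symbol of each gene identifier or, failing that, by the protein name in the deposited annotation, and 9 of the 10 were found among 19670 gene models. ELN, FBN1, FBN2, FBLN5, EFEMP2, EMILIN1, LOX and LOXL1 were found by identifier and MFAP5 by protein name, while LTBP4 is not analysed here. All 9 had enough reads to be tested. The list was chosen with earlier results of these data known, and all 9 are given whatever their values.

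The 6 libraries came from primary cells freed by enzymes from the auricular cartilage of 1 pig of 4 months, a Duroc x (Landrace x Large White) cross that carried wild-type PPARD. Cells received GW0742, an agonist of the nuclear receptor PPARD, or DMSO, its solvent, for 24 h, and 3 libraries were made from each group. The comparison asks what an active PPARD does to RNA in ear cartilage cells, a tissue whose growth the series links to this receptor. Every cell came from 1 animal, and the labels do not say whether the 3 libraries of a group came from separate cultures. The p-values therefore refer to variation among these libraries alone, part or all of which may be technical.

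An elastic fibre has a core of elastin laid onto a scaffold of fibrillin microfibrils. Tropoelastin, the soluble product of ELN, is guided onto the scaffold by fibulins and related glycoproteins and is then cross-linked by lysyl oxidases, which turn lysine side chains into reactive aldehydes. Auricular cartilage differs from the hyaline cartilage of joints in holding such fibres among its collagen and proteoglycan. RNA levels say nothing of the fibres themselves, which turn over slowly.

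Each library held between 13133980 and 16913745 estimated reads. CPM values, reads scaled to the size of the library, use sizes corrected by TMM, a correction for RNA composition, and serve to compare a gene between libraries. RPKM, which also divides by the length of the gene model, serves to compare genes. Established PPARD targets moved with the label: ANGPTL4, a secreted inhibitor of lipoprotein lipase, lay between 16.0 and 26.5 CPM with DMSO and between 176 and 199.9 CPM with GW0742 (log2 fold change 3.14 ± 0.15, SE; edgeR adjusted p = 0.000193). PDK4, which restrains pyruvate use, and CPT1A, which admits fatty acids to mitochondria, rose by log2 4.05 and 1.95 (edgeR adjusted p = 0.00151 for each). The size of the PDK4 rise depended on the constant added to RPKM. It was 2.95 in limma on log2(RPKM + 0.1) and 1.06 on log2(RPKM + 1) (limma adjusted p = 0.00429 and 0.0159). PPARD itself had a log2 fold change of 0.11 (edgeR adjusted p = 0.499).

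The elastic fibre genes spanned a wide range of levels. Ordered by mean RPKM with DMSO, they ran FBN1, LOX, ELN, EFEMP2, EMILIN1, LOXL1, FBLN5, MFAP5 and FBN2. FBN1 was at 364 ± 19.4 RPKM (SD, n = 3), LOX at 303 ± 21.7 and ELN at 127 ± 15.3. EFEMP2 was at 85.1 ± 5.23, EMILIN1 at 74.2 ± 2.53 and LOXL1 at 60.9 ± 1.48. FBLN5 was at 18.6 ± 1.15, MFAP5 at 10.9 ± 1.12 and FBN2 at 4.36 ± 0.14 RPKM. With DMSO no 2 neighbours in this order overlapped between libraries. With GW0742 the sole overlap was between EFEMP2 (78.3 ± 6.04) and EMILIN1 (81.3 ± 3.54), where EFEMP2 was the higher in 1 of 3 libraries. By mean RPKM over the 6 libraries FBN1 ranked 210, LOX 261 and ELN 550 among the 19670 models, while FBN2 ranked 9456. These ranks depend on model lengths, which ran from 348 bases for MFAP5 to 7534 for FBN2.

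No elastic fibre gene passed the test for a change with GW0742. At an adjusted p under 0.05, 0 of 9 were called by edgeR, where 0.262% of the 14146 tested models were called (0.184% higher and 0.0778% lower). DESeq2 also called 0 of 9, against 2.69% of the 15716 models it tested (1.26% higher and 1.43% lower). At an unadjusted p under 0.05 in edgeR 1 of 9 was lower, FBN2, against 8.91% of all tested models lower and 16.8% in either direction. In 3 of the 9 the libraries of both groups did not overlap, against 23.4% of all tested models. Of these, 2 were higher and 1 lower, where 11.4% and 12.1% of all tested models were. The log2 fold changes were above 0 for 6 and below 0 for 3, against 49.7% of all tested models above 0. Their median was 0.08, beside -0.002 over all tested models.

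**Figure D1:**
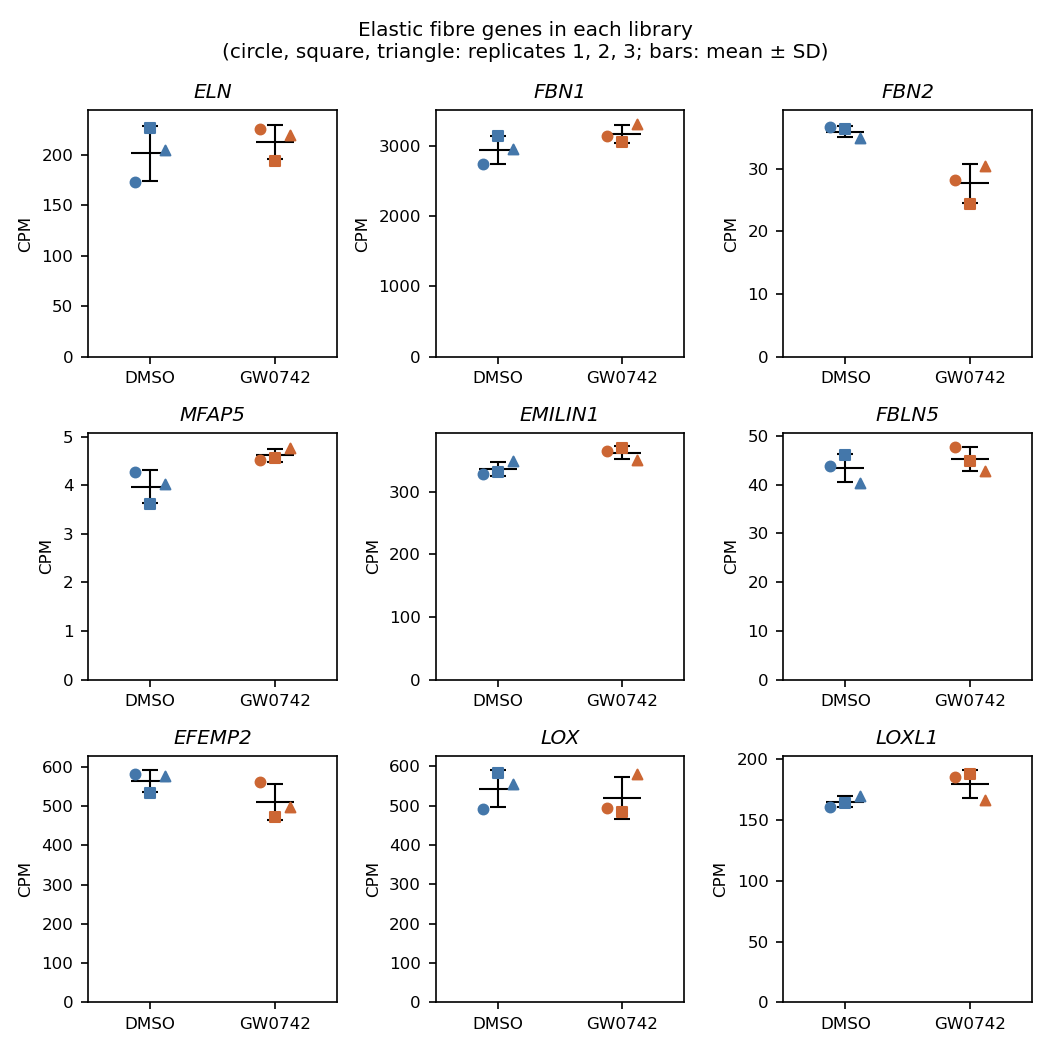
Level of each elastic fibre gene in each library, in CPM on axes that start at 0, with DMSO libraries in blue and GW0742 libraries in orange. Points are libraries and bars are the mean and SD of 3. The groups stand apart in FBN2 (24.4 to 30.5 CPM with GW0742, 34.9 to 36.6 with DMSO), in EMILIN1 and in MFAP5, and overlap in the other genes.

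Elastin itself, the core of the fibre, lay at a similar level in both groups. ELN (ENSSSCG00000025858) was at 173, 227 and 205 CPM in DMSO replicates 1, 2 and 3 and at 225, 194 and 219.6 CPM in GW0742 replicates 1, 2 and 3. In CPM, DMSO replicate 1 was the lowest of the 6 and DMSO replicate 2 the highest, so all GW0742 libraries fell inside the DMSO range. In RPKM, GW0742 replicate 1 was the highest, at 142.7 beside 140.9 for DMSO replicate 2. The means were 201 ± 27.1 and 213 ± 16.9 CPM (SD, n = 3), and the log2 fold change was 0.08 ± 0.10 (SE, edgeR adjusted p = 0.738). Its 95% interval ran from -0.15 to 0.32, so changes from -10.2% to 24.4% lay within the error. Without DMSO replicate 1 the estimate turned to -0.020, and over the other left-out libraries it reached 0.17. The model is named elastin by the gene name table, but its deposited protein match is an unnamed hypothetical protein, so its identity rests on the identifier.

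The fibrillins, large cysteine-rich glycoproteins that polymerise into microfibrils, differed between each other in level and in their estimates. FBN1 (ENSSSCG00000004658), the main fibrillin of postnatal tissue, was at 2747, 3145 and 2955 CPM with DMSO and at 3145, 3055 and 3312 CPM with GW0742. The groups overlapped, and DMSO replicate 1 was again the lowest. FBN1 had a log2 fold change of 0.10 ± 0.07 (SE, 95% interval -0.05 to 0.26, edgeR adjusted p = 0.474).

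FBN2 (ENSSSCG00000014256), a fibrillin used mostly in embryonic and early microfibrils, was lower in every GW0742 library than in any DMSO library. It was at 36.6, 36.3 and 34.9 CPM with DMSO and at 28.2, 24.4 and 30.5 CPM with GW0742. The DMSO libraries lay close together (35.9 ± 0.91 CPM, SD, n = 3), while the GW0742 libraries were more spread (27.7 ± 3.10). These levels rest on 483 to 617 reads with DMSO and 368 to 467 with GW0742. This gave a log2 fold change of -0.38 ± 0.09 (SE, 95% interval -0.59 to -0.16), a difference of -23.0%. FBN2 did not pass after adjustment in edgeR (adjusted p = 0.123) or in DESeq2 (adjusted p = 0.0753). Over the alternatives the log2 value stayed between -0.45 and -0.28, and 0.0753 was the smallest adjusted p.

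A further model with the protein name fibrillin-2-like (ENSSSCG00000028067, 627 bases) could share reads with FBN2. It was at 2.91, 3.68 and 3.54 CPM with DMSO and at 2.22, 1.93 and 3.01 CPM with GW0742, and the groups overlapped (log2 -0.50 ± 0.23, SE; edgeR adjusted p = 0.331). With both models summed before the test, levels were 38.4 to 40.0 CPM in DMSO libraries and 26.3 to 33.5 CPM in GW0742 libraries. The sum had a log2 fold change of -0.39 ± 0.10 (SE, edgeR adjusted p = 0.120), as large as that of FBN2 alone, and its groups did not overlap.

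MFAP5 (ENSSSCG00000000666), a small glycoprotein that binds fibrillin microfibrils, was the least read of the 9. It had 48 to 72 reads per DMSO library and 59 to 73 per GW0742 library. It was at 4.27, 3.60 and 4.02 CPM with DMSO and at 4.52, 4.55 and 4.77 CPM with GW0742, so the groups did not overlap. Its log2 fold change of 0.22 ± 0.17 (SE) had the widest interval of the 9, from -0.16 to 0.60 (edgeR adjusted p = 0.551).

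The glycoproteins that join elastin to microfibrils gave estimates on both sides of 0. EMILIN1 (ENSSSCG00000008557), found where elastin meets the microfibrils, was at 329, 331 and 349 CPM with DMSO and at 366, 371 and 351 CPM with GW0742. The groups did not overlap, though DMSO replicate 3 and GW0742 replicate 3 were almost level. EMILIN1 had a log2 fold change of 0.11 ± 0.06 (SE, 95% interval -0.02 to 0.23, edgeR adjusted p = 0.383), the narrowest interval of the 9.

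FBLN5 (ENSSSCG00000002444), which tethers tropoelastin to microfibrils and to cell-surface integrins, was at 43.9, 46.1 and 40.4 CPM with DMSO and at 47.8, 44.9 and 42.9 CPM with GW0742. The groups overlapped (log2 0.06 ± 0.08, SE; 95% interval -0.12 to 0.24; edgeR adjusted p = 0.766). EFEMP2, also called fibulin-4 (ENSSSCG00000012971), which brings lysyl oxidase to tropoelastin, was at 583, 533 and 577 CPM with DMSO and at 562, 472 and 498 CPM with GW0742. GW0742 replicates 2 and 3 lay below all DMSO libraries and GW0742 replicate 1 lay among them. The log2 fold change was -0.14 ± 0.08 (SE, 95% interval -0.32 to 0.03, edgeR adjusted p = 0.389).

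The cross-linking enzymes were both well expressed. LOX (ENSSSCG00000014232), which acts on collagen as well as elastin, was at 492, 582 and 556 CPM with DMSO and at 493, 484 and 579 CPM with GW0742. Neither group stood apart (log2 -0.07 ± 0.09, SE; 95% interval -0.27 to 0.14; edgeR adjusted p = 0.753). LOXL1 (ENSSSCG00000001914), a family member with a preference for elastic fibres, was at 161, 164 and 169 CPM with DMSO and at 185, 187 and 166 CPM with GW0742. GW0742 replicates 1 and 2 were above all DMSO libraries, and GW0742 replicate 3 was among them. LOXL1 had a log2 fold change of 0.12 ± 0.07 (SE, 95% interval -0.02 to 0.27, edgeR adjusted p = 0.383). A further LOXL1 model (ENSSSCG00000028880) held at most 1.58 CPM, and adding it gave a log2 value of 0.13 (edgeR adjusted p = 0.372).

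**Figure D2:**
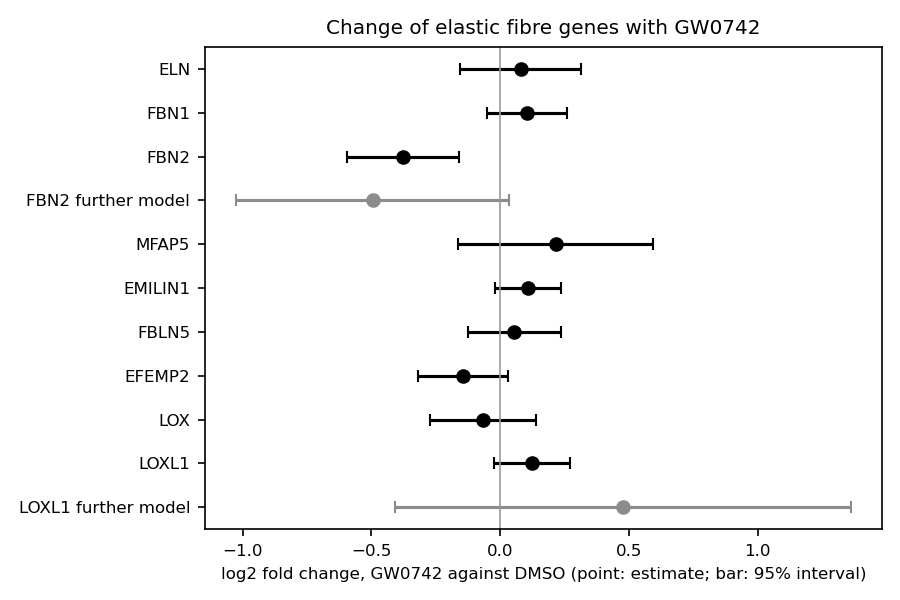
Estimated log2 fold change of each elastic fibre gene, GW0742 against DMSO, with its 95% interval from the edgeR fit. Grey marks the further models. FBN2 is the single gene whose interval lies wholly below 0 (-0.59 to -0.16), and none lies wholly above 0.

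Libraries of 1 group did not move all elastic fibre genes together. DMSO replicate 1 was the lowest of its group for 5 of the 9 (ELN, FBN1, EMILIN1, LOX and LOXL1), where it was the lowest for 30.6% of all tested models. It was also the highest of its group for 3 (FBN2, EFEMP2 and MFAP5), against 30.6% of all tested models. DMSO replicate 2 was the highest for 4 (ELN, FBN1, FBLN5 and LOX), close to its share of 41.0% of all tested models. GW0742 replicate 2 was the lowest of its group for 5 (ELN, FBN1, FBN2, EFEMP2 and LOX), against 35.3% of all tested models. From the lowest to the highest of the 6 libraries, CPM differed 1.31-fold for ELN and 1.13-fold for EMILIN1.

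Ratios between genes of 1 library do not depend on depth and show how the makeup of the set differed. The log2 ratio of FBN2 to FBN1 RPKM was -6.26, -6.46 and -6.43 with DMSO and -6.83, -7.00 and -6.79 with GW0742. The groups did not overlap, and the means of -6.38 ± 0.11 and -6.87 ± 0.11 (SD, n = 3) differed by -0.49. FBN1 was thus 83.7-fold above FBN2 with DMSO and 117-fold above it with GW0742. An exact two-sided permutation test gave p = 0.1, which is the smallest that 3 against 3 libraries allow, and left-out libraries gave differences from -0.53 to -0.42.

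The log2 ratio of LOXL1 to LOX was -2.21, -2.42 and -2.31 with DMSO and -2.01, -1.96 and -2.40 with GW0742. GW0742 replicate 3 fell within the DMSO range, so the groups overlapped. The difference of 0.19 did not exceed the spread within GW0742 (SD 0.24, exact permutation p = 0.3). It was 0.33 without GW0742 replicate 3, with groups then apart but at p = 0.1, and as low as 0.11 without GW0742 replicate 2 (exact permutation tests).

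ELN made up 11.1, 12.9 and 12.1% of the summed RPKM of the 9 genes with DMSO and 13.2, 11.9 and 12.4% with GW0742. The means of 12.1 ± 0.90% and 12.5 ± 0.67% (SD, n = 3) differed by 0.415 percentage points (exact permutation p = 0.5). Without DMSO replicate 1 the difference was -0.048 points, and on shares of CPM, which ignore model length, it was 0.080 points. FBN1 held 34.8% of the summed RPKM with DMSO and 36.5% with GW0742, and LOX held 28.9% and 26.9%. The sum itself was 992, 1089 and 1063 RPKM with DMSO and 1081, 1067 and 1128 RPKM with GW0742.

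**Figure D3:**
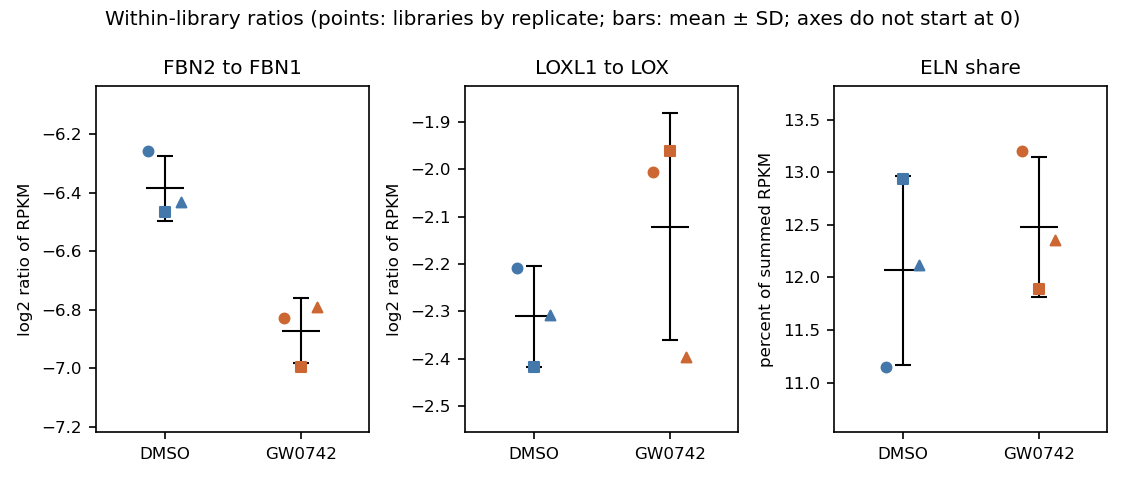
Within-library measures, DMSO in blue and GW0742 in orange: log2 ratio of FBN2 to FBN1 RPKM, log2 ratio of LOXL1 to LOX RPKM, and the percent of ELN in the summed RPKM of the 9 genes. Points are libraries, bars are the mean and SD of 3, and the axes do not start at 0. The groups stand apart in FBN2 to FBN1 (-6.46 to -6.26 against -7.00 to -6.79) and overlap in the other measures.

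A further 6 lists, of other genes of elastic fibre assembly and breakdown, were set beside the members. Of 75 listed genes 64 were matched and 60 tested, and 0 passed in edgeR. DESeq2 called 7 higher and 0 lower, against 1.26% higher and 1.43% lower over all models it tested. At an unadjusted p under 0.05 in edgeR 14 were higher and 1 lower, against 7.93% and 8.91% of all tested models. The groups did not overlap in 17 of 60 (28.3%), against 23.4% of all tested models. Of the 17, 13 were higher and 4 lower, where 11.4% and 12.1% of all tested models were. The median log2 fold change was 0.05, with 37 of 60 (61.7%) above 0, against 49.7% of all tested models.

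Among other elastic fibre and microfibril proteins 10 were tested, with a median log2 fold change of 0.04. DESeq2 called LTBP1 and LTBP2 higher, against 1.26% of all models it tested. LTBP1, which stores latent TGF-beta on microfibrils, had the highest log2 value and was at 111, 131 and 121 CPM with DMSO and 142, 154 and 153 CPM with GW0742 (log2 0.31 ± 0.07, SE; edgeR adjusted p = 0.114, DESeq2 adjusted p = 0.0169). LTBP2, a fibrillin-binding relative that does not bind latent TGF-beta, was at 669, 745 and 706 CPM with DMSO and 805, 925 and 836 CPM with GW0742 (log2 0.28 ± 0.07, SE; edgeR adjusted p = 0.126, DESeq2 adjusted p = 0.00965). LTBP3 was also higher in every GW0742 library, at 187 to 199.7 CPM against 161 to 175 CPM (log2 0.18, edgeR adjusted p = 0.187, DESeq2 adjusted p = 0.151). LTBP2 and LTBP3 were picked out after their values were seen. With LTBP1 they were the 3 of the 10 tested genes whose groups did not overlap. All 3 were higher, against 11.4% of all tested models higher and 23.4% in either direction. FBLN2, the list's most abundant gene at 264 ± 9.75 RPKM with DMSO, had a log2 value of -0.07 (edgeR adjusted p = 0.652). FBLN1, the lowest, had 24 to 38 reads per library and a log2 value of -0.13 (edgeR adjusted p = 0.826).

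Among cross-linking and processing genes 13 were tested, with a median of 0.04. POSTN (periostin), which helps lysyl oxidase activation, was low, with 33, 33 and 36 reads in the DMSO libraries and 62, 62 and 49 in the GW0742 libraries (log2 0.84 ± 0.22, SE; edgeR adjusted p = 0.129, DESeq2 adjusted p = 0.219). TNC (tenascin-C), picked out after its values were seen, lay between 2854 and 2881 CPM in DMSO libraries and between 3232 and 3489 CPM in GW0742 libraries (log2 0.21, edgeR adjusted p = 0.127, DESeq2 adjusted p = 0.00458). THBS1 (thrombospondin-1), the most abundant at 3843 ± 84.5 RPKM with DMSO, had a log2 value of 0.04, and the convertase PCSK6 had the lowest, -0.17 (edgeR adjusted p = 0.802 and 0.522).

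The microfibril-binding ADAMTS family and the TGF-beta ligands were the single related list with a median below 0 (-0.09, 11 tested). The list did not move as 1, with 5 log2 values above 0 and 6 below. Its groups stood apart in 1 gene higher and 2 lower, against 11.4% and 12.1% of all tested models. TGFB3, its most abundant gene by RPKM, was at 904, 865 and 869 CPM with DMSO and 827, 699 and 733 CPM with GW0742, lower in each GW0742 library (log2 -0.22 ± 0.07, SE; edgeR adjusted p = 0.181, DESeq2 adjusted p = 0.063). ADAMTSL3 and ADAMTSL2, with the highest and lowest log2 values of 0.38 and -0.42, were both under 12 CPM in all libraries (edgeR adjusted p = 0.601 and 0.396).

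Genes of elastin breakdown had the highest median of the 6 lists, 0.16 over 9 tested. MMP9, a gelatinase that also cuts elastin, was at 5.46, 7.43 and 7.92 CPM with DMSO and at 23.1, 23.3 and 12.2 CPM with GW0742. GW0742 replicate 3 was well below the other GW0742 libraries and above every DMSO library. The log2 fold change was 1.49 ± 0.26 (SE, edgeR adjusted p = 0.0651, DESeq2 adjusted p = 7.61e-06). Without GW0742 replicate 3 it was 1.74 and passed in edgeR (adjusted p = 0.013). Leaving out any other library gave 1.34 to 1.61, and MMP9 then did not pass (edgeR adjusted p from 0.104 to 0.249). CTSK, a cathepsin that cuts elastin and collagen and was picked out after its values were seen, was at 151, 151 and 151 CPM with DMSO and 179.8, 204 and 184 CPM with GW0742 (log2 0.32, edgeR adjusted p = 0.0776, DESeq2 adjusted p = 0.00158). TIMP1, an inhibitor of matrix metalloproteinases, lay on the same side, at 412 to 521 CPM in DMSO libraries and 576 to 618 CPM in GW0742 libraries (log2 0.34, edgeR adjusted p = 0.125, DESeq2 adjusted p = 0.00582). The elastases MMP7 and MMP12 had at most 3 reads in any library, at or under the floor of 3 reads (0.177 to 0.228 CPM). ELANE, neutrophil elastase, had 12 to 25 reads and the lowest log2 value, -0.09 (edgeR adjusted p = 0.921).

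Elastin receptors and integrins had a median of 0.02 over 10 tested. ITGA9 had the highest log2 value, 0.61 at 14 to 46 reads per library, CTSA of the elastin receptor complex had the lowest, -0.16, and the most abundant, LGALS3, had 0.13 (edgeR adjusted p = 0.412, 0.442 and 0.403). Proteoglycans that accompany elastic fibres had a median of 0.03 over 7 tested. LUM (lumican), a collagen-binding proteoglycan, was at 32.8, 47.2 and 33.0 CPM with DMSO and 61.0, 67.0 and 49.2 CPM with GW0742 (log2 0.65 ± 0.16, SE; edgeR adjusted p = 0.117, DESeq2 adjusted p = 0.00518). BGN (biglycan), the most abundant at 4805 ± 448 RPKM with DMSO, had the lowest log2 value of -0.06 (edgeR adjusted p = 0.746).

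**Figure D4:**
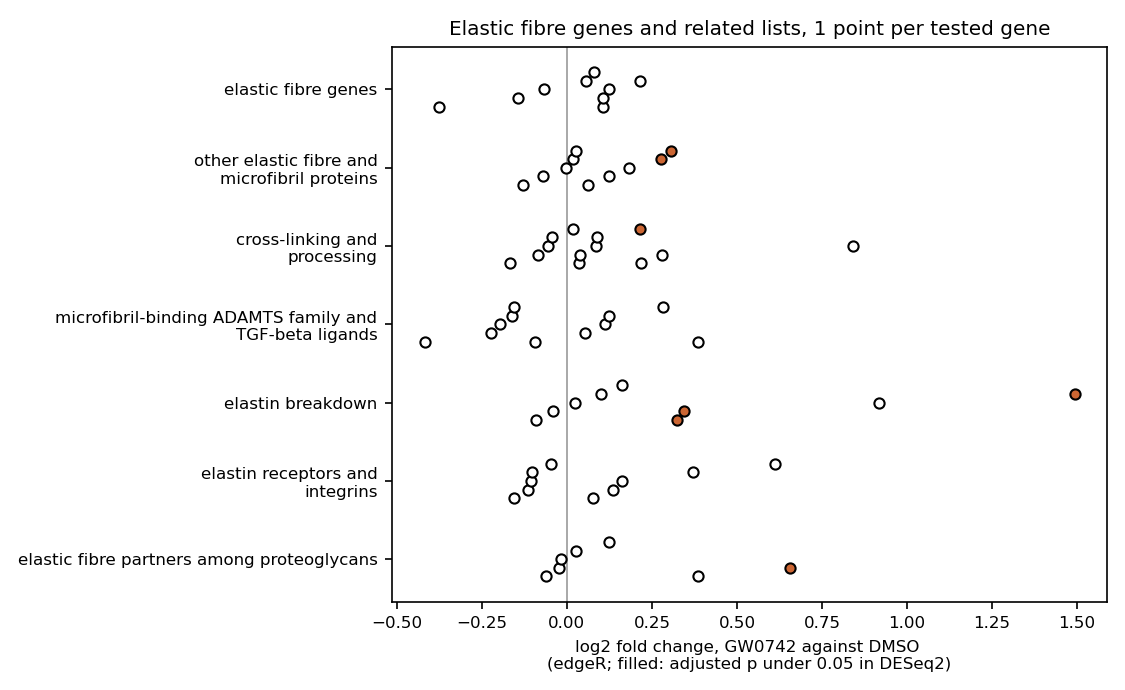
Log2 fold change, GW0742 against DMSO, of every tested gene in the elastic fibre list and the 6 related lists, 1 point per gene, spread vertically for legibility. Filled points passed an adjusted p under 0.05 in DESeq2 and none passed in edgeR. The rightmost point is MMP9 at 1.49, and the 9 elastic fibre genes lie between -0.38 and 0.22.

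Levels can also reflect which cells were present, since in bulk RNA fewer cells of a type and less RNA per cell cannot be told apart. Of 16 chondrocyte markers 15 were matched, and their summed level was 2428 to 2570 CPM in DMSO libraries and 1995 to 2122 CPM in GW0742 libraries. The markers did not all move with the sum. Of 13 tested, 9 had a log2 fold change below 0 and 4 above 0, from -0.62 to 0.43. The groups stood apart in 4 lower and 2 higher, against 12.1% and 11.4% of all tested models. COL2A1 and SOX9 were present at 511 ± 29.2 and 43.7 ± 1.93 CPM with DMSO (SD, n = 3), while MATN1 and CNMD were under the floor in all libraries. ACAN (aggrecan), their only member to pass in edgeR, fell from 816 ± 34.1 to 576 ± 16.4 CPM (log2 -0.50, edgeR adjusted p = 0.0185). That call was lost when DMSO replicate 1 (edgeR adjusted p = 0.101), DMSO replicate 3 (0.0815) or GW0742 replicate 1 (0.105) was left out, and in limma on log2(RPKM + 1) (0.0648) and log2(RPKM + 0.1) (0.069). The log2 value stayed between -0.53 and -0.47 in these fits. COL11A1, the most abundant of them by RPKM, was at 921 ± 44.1 and 758 ± 49.2 CPM (log2 -0.28, edgeR adjusted p = 0.114, DESeq2 adjusted p = 0.00445).

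Markers of fibroblasts and perichondrium, which also make elastic fibre proteins, were abundant. Of 11 such markers 8 were matched, COL1A1, PDGFRA and DPT not among them, and VIM was the most abundant by RPKM. The sum was 62768 to 69051 CPM in DMSO libraries and 57679 to 63841 CPM in GW0742 libraries. The marker lists hold different genes, so their sums do not give the shares of cell types. DESeq2 called 1 of the 8 lower and 0 higher, against 1.43% and 1.26% of all models it tested. Smooth muscle and pericyte markers (6 of 8 matched) summed to 8466 to 8909 CPM in DMSO libraries and 6422 to 8129 CPM in GW0742 libraries, with TAGLN the most abundant. Of these 6, 4 were lower at an unadjusted p under 0.05 in edgeR, against 8.91% of all tested models. After adjustment 0 passed in edgeR, and DESeq2 called 3 lower, against 1.43% of all models it tested. Endothelial markers (7 of 9 matched, CDH5 and VWF not among them) summed to 63.0 to 88.6 CPM in DMSO libraries and 98.4 to 133 CPM in GW0742 libraries, with CLDN5 the most abundant. All 6 tested endothelial markers were higher at an unadjusted p under 0.05 in edgeR, against 7.93% of all tested models. Their median log2 fold change was 1.36, and 0 passed after adjustment. DESeq2 called 2 of them higher, PECAM1 and KDR (adjusted p = 0.000495 and 0.0233), against 1.26% of all models it tested. Sums of adipocyte, keratinocyte, immune and skeletal muscle markers stayed under 12 CPM in all libraries. The chondrocyte, smooth muscle and endothelial sums did not overlap between groups, as FBN2, EMILIN1 and MFAP5 did not, and their part in those values was not tested.

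For ELN, FBN1 and LOX the tested genes with a symbol were ranked by how closely their centred log2 CPM followed them over the 6 libraries. The measure is the root mean square difference, over 9245 genes, and is a description with no test. By it, a gene that did not vary at all would lie at 0.139 from ELN, 0.085 from FBN1 and 0.115 from LOX. Each of these is under the median given below, so a value under the median does not by itself show a shared pattern. Nearest to ELN were BNIP3 (0.040), FBXO32 (0.048) and AMER1 (0.048), where the median gene was at 0.201. FBN1 was the 59th nearest to ELN, and the other members ranked from 657 (LOX) to 6941 (FBN2). From FBN1, ELN ranked 452. Nearest to FBN1 were ITGA3 (0.017), SCIN (0.020) and TRIM66 (0.023), with a median of 0.167. Nearest to LOX were SLC25A43 (0.040), MRPS2 (0.042) and NAMPT (0.043), with a median of 0.183. Some of these genes were low: SCIN lay at 1.90 to 2.29 CPM, AMER1 at 7.89 to 10.3 and FBXO32 at 10.9 to 14.9.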

How the data were processed

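Poly(A) RNA of 6 libraries (3 DMSO, 3 GW0742) was read on an Ion Proton instrument, per the labels' protocols, which name no step that marks the strand. Per the file headers, the deposited library tables give estimated counts per gene model, made by the authors, and the deposited RPKM values, repeated in a series table of 19670 models with 0 values differing by over 0.01%. The build was Sscrofa10.2, per the submitters' processing notes, with aligner and counter not given in the sources used here. A gene name table named 11147 models. A further 567 were named by protein match and pathway identifier through RefSeq (Sscrofa 11.1, names only).

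Estimated counts were rounded, filtered with filterByExpr (minimum count 10), normalised by TMM, and compared by edgeR 4.0.16 in R 4.3.3 (glmQLFit and glmQLFTest) over 14146 models, two-sided and Benjamini-Hochberg adjusted, threshold 0.05. The SE is the log2 fold change over the root of F. DESeq2 1.42.0 ran on models with at least 1 read. Ratios of RPKM were compared by exact permutation over 20 splits. Alternatives were other size factors, DESeq2, no filter, each library left out, a replicate block, limma 3.58.1 on log2(RPKM + 1) and log2(RPKM + 0.1), summed models and an adjusted p under 0.01. The scripts were tested on simulated data.

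Members, lists and tests were chosen with earlier results of these data known. The text names all members, and in each related list the genes past the threshold, those with the highest and lowest log2 fold change and the most abundant. Of marker lists it names the most abundant and those past the threshold. KRT10, CD3E and ACTA1 (each under 6 CPM) led the keratinocyte, immune and skeletal muscle lists. Outside these rules it also names COL2A1 and SOX9, genes at or under the floor (MATN1, CNMD, MMP7 and MMP12) and unmatched genes (CDH5, VWF, COL1A1, PDGFRA and DPT). Other names (LTBP2, LTBP3, TNC, CTSK, PECAM1, KDR) were chosen after their values were seen. The floor of 3 reads covers counting error only. Within a group, pairs of libraries gave a chi-square of 4.34 to 16.0 for each degree of freedom, so none was a duplicate.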

Additional observations from a re-analysis of the deposited data

How the results depend on the processing

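No elastic fibre gene passed under any alternative run; of their repeated log2 estimates 109 kept direction and side of the threshold and 1 turned, ELN, which ran from -0.020 (without DMSO replicate 1) to 0.17. Counts over all models, 26 higher and 11 lower, were 198 and 224 in DESeq2, 13 and 3 without the low-count filter, 17 and 4 in limma on log2(RPKM + 0.1), 19 and 3 in limma on log2(RPKM + 1), and 6 and 0 at an adjusted p under 0.01. Left-out libraries gave 6 to 54 higher and 0 to 47 lower, the lowest without DMSO replicate 1 and the highest without GW0742 replicate 3; leaving out any library but DMSO replicate 2 moved a count by over 1.5 times. Of the counts of 0 lower, that for DMSO replicate 1 left out had 842 models lower at an unadjusted edgeR p under 0.05, that for DMSO replicate 3 had 945 and that for GW0742 replicate 1 had 1032, against 1260 with all libraries. With the replicate number as a block edgeR called 10 higher and 0 lower (1102 at an unadjusted p) and 0 members, and ACAN did not pass (adjusted p = 0.099). Same-numbered libraries had correlations of 0.005, -0.032 and -0.103, and other pairs across the groups -0.037 to 0.068. These values show no pairing by number, but with 3 libraries in each group they cannot exclude it. Other named genes that changed sign without 1 library were FBLN1 (-0.31 to 0.0022), THBS1 (-0.0025 to 0.071), ADAMTSL3 (-0.024 to 0.66), BGN (-0.13 to 0.024) and ELANE (-0.34 to 0.16), as log2 ranges over left-out libraries. The cause was not tested. MFAP5 rests on 48 to 73 reads per library.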
